A study of Homo sapiens with 6 samples.

Results

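PEMT and 9 other genes of phosphatidylcholine, phosphatidylethanolamine and phosphatidylserine synthesis were followed in MDA-MB-231 cells given a miRNA precursor. PEMT was chosen by its fall with miR-214-3p in these same arrays, and the other 9 genes (CHKA, CHKB, PCYT1A, CHPT1, CEPT1, ETNK1, PCYT2, PTDSS1 and PISD) were chosen for their role in the same pathway. Every probe assigned to a RefSeq transcript of one of these genes was taken, which gave 10 of the 21743 genes named on the array and 14 of its 50599 probes. Tested probes had to stand well above background on each array of 1 group or more, as 12 of the 14 probes did, so each of the 10 genes had at least 1 tested probe among the 11974 genes tested.

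MDA-MB-231 is a triple-negative human breast cancer cell line of mesenchymal type. Cells received the precursor of hsa-miR-205-5p, that of hsa-miR-214-3p or a scrambled precursor (SCR) as the control, which made 3 groups, and RNA was taken 72 h later. All groups shared the cell line, the reverse transfection and the culture medium. Each group had 2 one-colour Agilent arrays, and the sample labels do not say whether the 2 came from separate cultures, so the p-values below measure the spread between these arrays, which may be technical. The design was a transient transfection of 1 cell line, and the amount of mature miRNA in these samples was not measured on these arrays.

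Of 58717 spots per array, 35.4% to 42.2% stood well above background and 0 saturated the scanner. The root mean square difference between the 2 arrays of a group was 0.67 log2 units for SCR, 0.51 for miR-205-5p and 0.34 for miR-214-3p, so the control was the most variable group. Of 8 markers of mesenchymal-type breast cell lines, VIM, FN1, CD44, AXL, CAV1, LGALS1 and S100A4 were well above background on all 6 arrays and SPARC on 0, while of 7 luminal markers ESR1, PGR and FOXA1 were well above background on 0 arrays and CDH1, EPCAM, GATA3 and ERBB3 on 6. Processed signals of these 4 ran from 13.2 to 386 and those of FN1 from 15.7 to 45.5, while the other 6 detected mesenchymal markers were at 1830 or more. So 4 of the 7 luminal markers were detected, and signals of different probes are not comparable. Both miR-214-3p arrays lay in the second row of the slide and the other 4 in the first, so slide row and miR-214-3p cannot be told apart.

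Phosphatidylcholine and phosphatidylethanolamine are the most abundant phospholipids of mammalian membranes. Both are made by the Kennedy pathway, in which choline or ethanolamine is phosphorylated, activated with CTP and joined to diacylglycerol. A separate route, most active in liver, methylates phosphatidylethanolamine to phosphatidylcholine, and PEMT is the enzyme that carries it out. Phosphatidylserine is made by exchange of the head group in the endoplasmic reticulum and can be decarboxylated to phosphatidylethanolamine in mitochondria. miRNAs pair with messenger RNAs mainly through the seed, bases 2 to 8 of the mature strand, and commonly lower the level of the RNAs they pair with.

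The mature strands of the 2 precursors are shown because they are the agents compared throughout. They are given 5′ to 3′ from RefSeq (GRCh38.p14), with the seed in capitals. hsa-miR-205-5p lies at chr1:209432166-209432187 on the plus strand and hsa-miR-214-3p at chr1:172138816-172138837 on the minus strand. Their seeds differ.
hsa-miR-205-5p: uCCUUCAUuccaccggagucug
hsa-miR-214-3p: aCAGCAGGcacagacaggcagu

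All levels below are normalized log2 signals, that is log2 of the processed signal minus the 75th percentile of the same array, so a value of 0 is the 75th percentile of all probes and a difference of 1 is 2-fold. Levels of different probes are not comparable, because probes differ in how well they bind. A gene was called where the adjusted p of limma (Benjamini-Hochberg over all tested probes) was under 0.05 and the difference was at least 2-fold. Values after ± are SDs over n = 2 arrays.

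PEMT, phosphatidylethanolamine N-methyltransferase, had 1 probe on the array, which was well above background on all 6 arrays. Its normalized log2 signal was 4.94 and 4.63 on the SCR arrays, 4.35 and 4.28 on the miR-205-5p arrays, and 2.10 and 2.15 on the miR-214-3p arrays. The 2 miR-214-3p arrays were far below the other 4, the 2 miR-205-5p arrays lay just below the SCR arrays, and no groups overlapped. The group means were 4.79 ± 0.22 in SCR, 4.31 ± 0.05 with miR-205-5p and 2.12 ± 0.04 with miR-214-3p. On the linear scale before normalization, the processed signal of the PEMT probe was 1548 and 1438 on the SCR arrays, 849 and 681 on the miR-205-5p arrays, and 207 and 162 on the miR-214-3p arrays.

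The miR-214-3p mean of PEMT was 2.67 log2 units below SCR on the normalized scale, which is 6.35-fold lower. The gene was chosen by this difference, which is therefore given as a description. Among the 210 genes called lower with miR-214-3p and well above background on all 4 arrays compared, PEMT had the 5th largest fall, and it was the 9th largest over all genes tested. PEMT was 2.19 log2 units (4.56-fold) higher with miR-205-5p than with miR-214-3p, again as a description since the miR-214-3p arrays enter it. The difference of PEMT from SCR with miR-214-3p ran from -2.82 to -2.51 when single arrays were left out. Its adjusted p with all arrays, 0.0251 (limma), is part of the same description. Without any 1 array other than SCR replicate 2 the call was lost, as were all other calls with miR-214-3p against SCR. Fits with fewer arrays have fewer degrees of freedom.

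With miR-205-5p, PEMT was 0.48 log2 units below SCR (SE 0.18, 95% interval -0.92 to -0.04), or 1.39-fold lower, and was not called (adjusted p = 0.114, limma). This comparison shares its control arrays with the one that chose the gene. The difference was -0.73 (adjusted p = 0.0315, limma) with normexp background correction and -0.87 (adjusted p = 0.0336) with scaling to the median signal, both past the adjusted threshold but under 2-fold. It ran from -0.63 to -0.32 when single arrays were left out. RNA was measured in bulk, so a difference in some cells and a smaller one in all cells cannot be told apart.

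**Figure D1:**
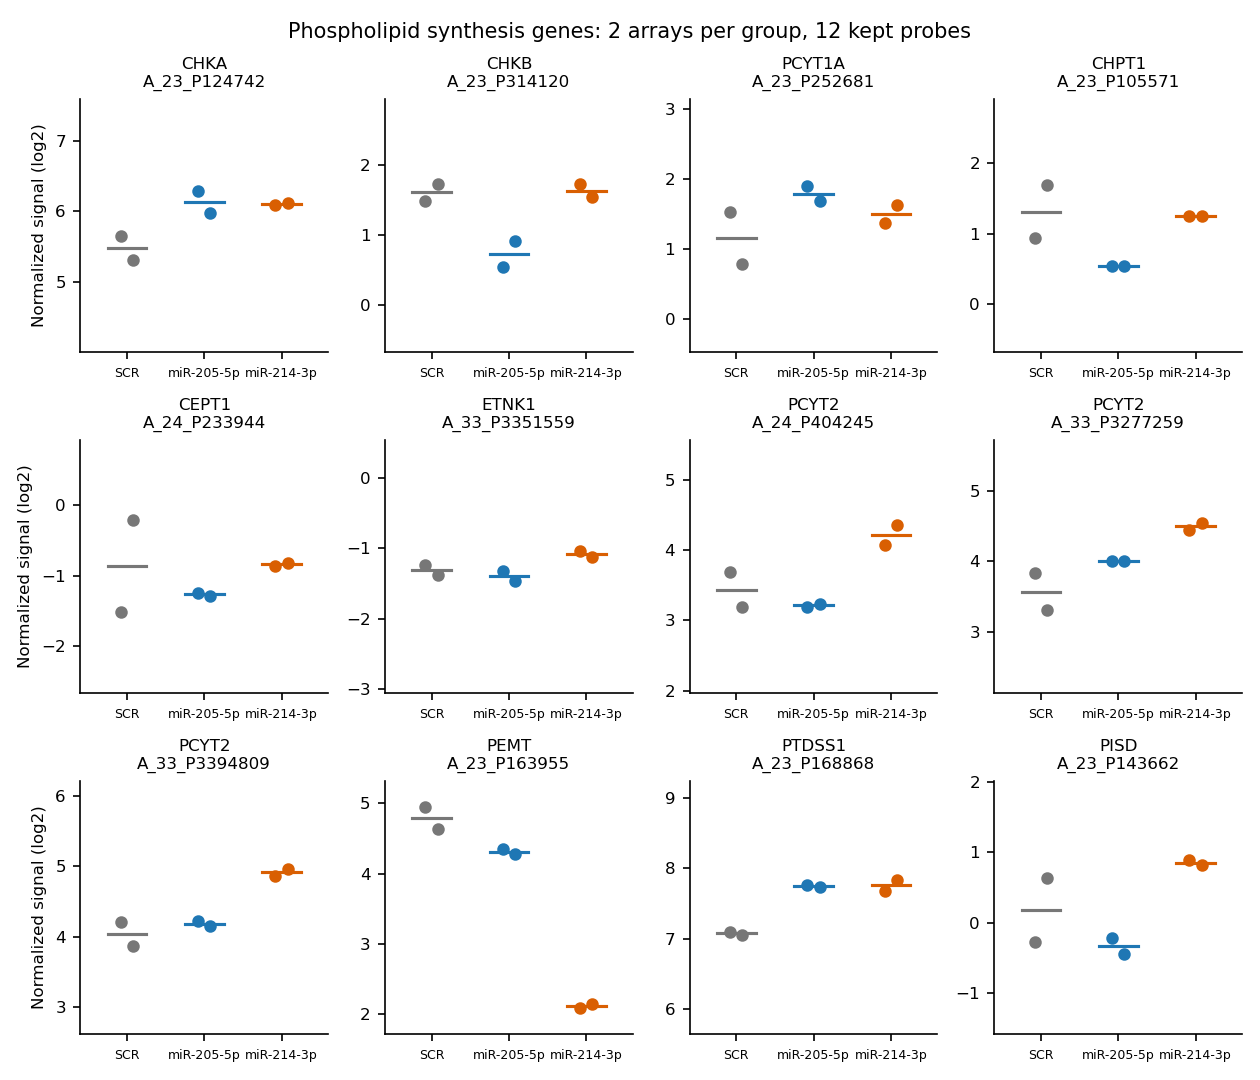
Normalized log2 signal (y axis) of the 12 tested probes of the 10 genes, with 1 point per array, a bar at the mean of 2 arrays, and SCR, miR-205-5p and miR-214-3p on the x axis. Every panel spans the same range of log2 units but is centred on its own probe, and the PEMT panel shows the miR-214-3p arrays at 2.10 and 2.15 against 4.63 and 4.94 in SCR.

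The choline branch of the Kennedy pathway starts with the choline kinases. CHKA, choline kinase alpha, whose level and activity are raised in many breast tumours, read 5.66 and 5.31 on the SCR arrays, 6.29 and 5.98 with miR-205-5p, and 6.08 and 6.12 with miR-214-3p. All 4 precursor arrays were above both SCR arrays. The difference from SCR was 0.65 (SE 0.20, 1.57-fold, adjusted p = 0.0780, limma) with miR-205-5p and 0.62 (SE 0.20, 1.54-fold, adjusted p = 0.159) with miR-214-3p, neither of which was called. With miR-205-5p the CHKA difference was 0.26 (adjusted p = 0.481) under scaling to the median signal. The precursors differed from each other in CHKA by 0.03 (95% interval -0.47 to 0.54).

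CHKB, choline kinase beta, was lower with miR-205-5p. Its values were 1.49 and 1.73 on the SCR arrays, 0.55 and 0.92 with miR-205-5p, and 1.72 and 1.55 with miR-214-3p. The 2 miR-205-5p arrays were the lowest of the 6, and the miR-214-3p arrays overlapped SCR. CHKB was 0.88 log2 units below SCR with miR-205-5p (SE 0.21, 1.84-fold, adjusted p = 0.0402, limma), which passed the adjusted threshold but not the 2-fold limit. It was also 0.90 lower with miR-205-5p than with miR-214-3p (SE 0.21, 1.87-fold, adjusted p = 0.0266), again under 2-fold, and 0.03 from SCR with miR-214-3p (95% interval -0.49 to 0.54). Leaving out any 1 array other than SCR replicate 1 left the CHKB difference from SCR short of the adjusted threshold, with adjusted p of 0.0857 to 0.155.

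PCYT1A encodes an enzyme that makes CDP-choline from phosphocholine, the rate-limiting step of the branch. It read 1.53 and 0.78 on the SCR arrays, 1.89 and 1.68 with miR-205-5p, and 1.38 and 1.63 with miR-214-3p. The SCR arrays differed from each other by more than either precursor mean differed from the SCR mean. The differences from SCR were 0.63 (SE 0.29, adjusted p = 0.170, limma) with miR-205-5p and 0.35 (SE 0.29, adjusted p = 0.516) with miR-214-3p.

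CHPT1 and CEPT1 carry out the last step, joining CDP-choline to diacylglycerol, and CEPT1 also accepts CDP-ethanolamine. The CHPT1 probe was printed in 10 spots, which were averaged, and gave 0.94 and 1.69 on the SCR arrays, 0.54 and 0.55 with miR-205-5p, and 1.25 and 1.25 with miR-214-3p. CHPT1 was lower on both miR-205-5p arrays than on the other 4, but the difference from SCR of -0.77 (SE 0.27, adjusted p = 0.104, limma) was not called. CEPT1 gave -1.52 and -0.22 on the SCR arrays, -1.25 and -1.29 with miR-205-5p, and -0.86 and -0.81 with miR-214-3p, so its SCR arrays enclosed all 4 precursor arrays. For CEPT1 the differences from SCR were -0.40 with miR-205-5p and 0.03 with miR-214-3p (SE 0.42 each), and its processed signal was at most 49.9 on any array.

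For 3 genes of the choline branch the outcome changed with the control array left out. Without SCR replicate 1, PCYT1A (1.01, adjusted p = 0.0257, limma), CHPT1 (-1.15, adjusted p = 0.00993) and CEPT1 (-1.05, adjusted p = 0.0116) were called with miR-205-5p, whereas without SCR replicate 2 none of the 10 genes was. Over all genes the share called with miR-205-5p was 20.6% without SCR replicate 1 and 11% without SCR replicate 2, beside 12.8% with all arrays. CHPT1 was also called with all arrays under scaling to the median signal (-1.16, adjusted p = 0.0413). In these fits the lone SCR array is assumed to vary like the other groups.

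The ethanolamine branch runs in parallel, with ETNK1 phosphorylating ethanolamine and PCYT2 making CDP-ethanolamine. ETNK1 had 3 probes, of which only A_33_P3351559 was tested. It read -1.24 and -1.38 on the SCR arrays, -1.32 and -1.47 with miR-205-5p, and -1.04 and -1.12 with miR-214-3p. The ETNK1 values lay within a narrow range, with differences from SCR of -0.09 (95% interval -0.49 to 0.31) and 0.23 (95% interval -0.17 to 0.63). Of the 2 miR-205-5p arrays, 1 was well above background for this probe, and each of the 2 untested ETNK1 probes was well above background on 1 of 6 arrays.

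PCYT2, the rate-limiting enzyme of the ethanolamine branch, had 3 probes, and on each both miR-214-3p arrays were the highest of the 6. The brightest, A_33_P3394809, read 4.21 and 3.87 on the SCR arrays, 4.22 and 4.14 with miR-205-5p, and 4.87 and 4.96 with miR-214-3p. A_33_P3277259 read 3.83 and 3.31, then 4.01 and 4.0, then 4.45 and 4.55 in the same order of groups. A_24_P404245 read 3.69 and 3.19, then 3.19 and 3.23, then 4.07 and 4.35. These 3 probes measure RNA of the same gene on the same arrays and are not independent.

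The differences of PCYT2 from SCR with miR-214-3p were 0.88 (SE 0.18, 1.83-fold, adjusted p = 0.0734, limma), 0.93 (SE 0.22, 1.90-fold, adjusted p = 0.0891) and 0.77 (SE 0.23, 1.71-fold, adjusted p = 0.134), so none was called. With miR-205-5p the probes did not share a direction, with differences of 0.14, 0.44 and -0.23 and adjusted p of 0.600, 0.204 and 0.504. PCYT2 was lower with miR-205-5p than with miR-214-3p by 0.73 (SE 0.18, adjusted p = 0.0339), 0.49 (SE 0.22, adjusted p = 0.135) and 1.00 (SE 0.23, adjusted p = 0.0268), 2 of which passed the adjusted threshold and none the 2-fold limit. Without any 1 of the 4 arrays compared PCYT2 probes A_33_P3394809 and A_24_P404245 no longer passed the adjusted threshold, with adjusted p of 0.0959 to 0.192. With all arrays, A_24_P404245 was called in that comparison under scaling to the median signal (-1.22, adjusted p = 0.0133, limma) and to the 75th percentile of the probes detected throughout (-1.02, adjusted p = 0.0202).

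The phosphatidylserine branch was represented by PTDSS1, the synthase that exchanges the choline of phosphatidylcholine for serine, and PISD, the mitochondrial decarboxylase that turns phosphatidylserine into phosphatidylethanolamine. PTDSS1 read 7.10 and 7.05 on the SCR arrays, 7.77 and 7.74 with miR-205-5p, and 7.68 and 7.84 with miR-214-3p. All 4 precursor arrays were above SCR, by more than the spread of any group. PTDSS1 was 0.68 above SCR with miR-205-5p (SE 0.15, 1.60-fold, adjusted p = 0.0373, limma), past the adjusted threshold but under 2-fold, and 0.68 above it with miR-214-3p (SE 0.15, 1.61-fold, adjusted p = 0.0839). With miR-205-5p the PTDSS1 difference was 0.29 (adjusted p = 0.328) under scaling to the median signal, 0.31 (adjusted p = 0.197) with normexp background correction and 0.46 (adjusted p = 0.0816) with quantile normalization. It was at least 0.65 when single arrays were left out, with adjusted p of 0.0519 to 0.143 without any 1 array other than SCR replicate 1. Between the precursors, the 95% interval of the PTDSS1 difference ran from -0.39 to 0.38.

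PISD read -0.28 and 0.64 on the SCR arrays, -0.22 and -0.45 with miR-205-5p, and 0.89 and 0.82 with miR-214-3p. The SCR arrays lay apart, one among the miR-205-5p arrays and the other nearer the miR-214-3p arrays. Neither difference from SCR was called, at -0.52 with miR-205-5p (SE 0.32, adjusted p = 0.291, limma) and 0.67 with miR-214-3p (SE 0.32, adjusted p = 0.285). Directly compared, PISD was 1.19 lower with miR-205-5p than with miR-214-3p (SE 0.32, 2.28-fold, adjusted p = 0.0411), the only one of the 9 genes other than PEMT that was called in any comparison.

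The PISD call held under the other scalings, the deposited log2 table and a filter that asked for signal well above background on each of the 6 arrays. It also held with the 4 arrays compared alone, the trend and robust variance model and the methods' t-test after adjustment. It was lost under others, among them no filter, a fit with a term for the replicate number (the replicate block) and those that follow. The difference was -0.50 (adjusted p = 0.104, limma) with normexp background correction, and leaving out any 1 of the 4 arrays compared gave -1.07 to -1.31 with adjusted p between 0.105 and 0.168. Without SCR replicate 1, the differences of PISD from SCR were -0.97 with miR-205-5p and 0.22 with miR-214-3p. Without SCR replicate 2 they were -0.06 and 1.13.

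**Figure D2:**
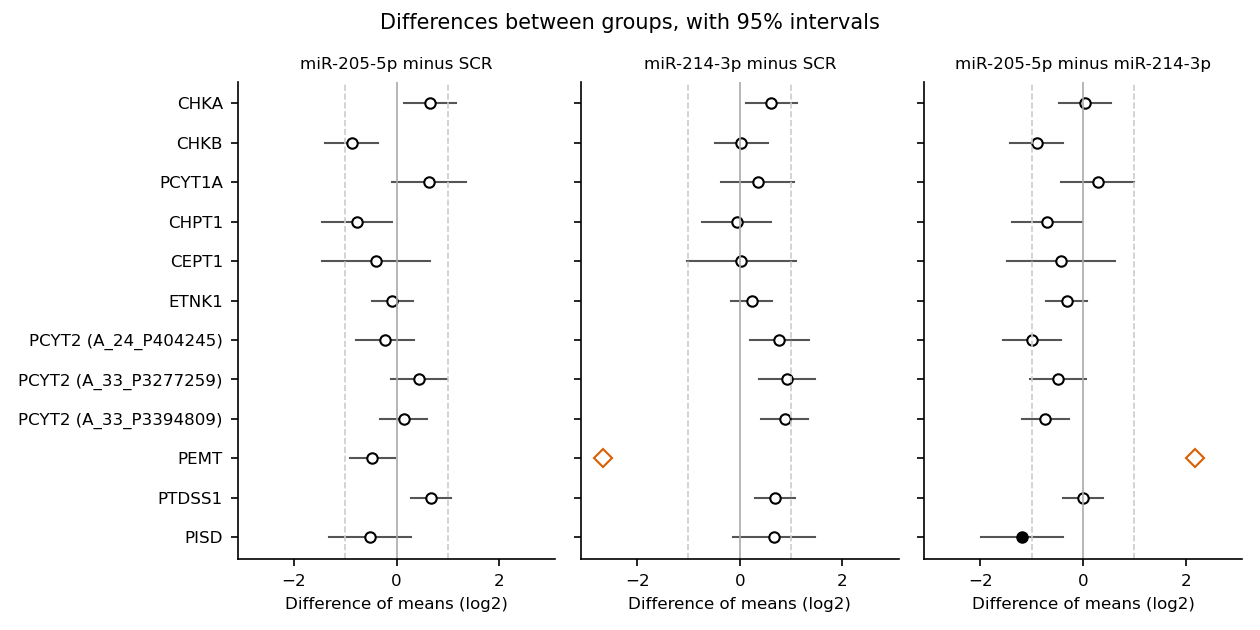
Differences between group means (x axis, log2 units) for the 12 tested probes in the 3 comparisons, with 95% intervals from limma; filled circles are called, open circles are not, and dashed lines mark 2-fold. Open diamonds without interval are PEMT in the comparisons that used the arrays it was chosen from, at -2.67 and 2.19, and the filled circle is PISD at -1.19.

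Counted together, 0 of 10 genes were called with miR-205-5p against SCR, where 7.98% of all genes were called lower and 4.78% higher. At an unadjusted p under 0.05 in limma, 3 of the 10 were lower (2 of the 9 without PEMT) and 2 higher, where 18.9% of all genes were lower and 20.6% higher. The methods' t-test after adjustment called 0 of them and 0 of all genes, so its 0 is no result about the 10. The median difference was -0.24 over the 10 genes, -0.09 over the 9 without PEMT and 0.08 over all genes. PEMT was chosen by a fall from the same SCR arrays. With miR-214-3p, 0 of the 9 genes other than PEMT were called, where 2.03% of all genes were called lower and 1.09% higher. At an unadjusted p under 0.05 in limma, 0 of the 9 were lower and 3 higher, where 13.4% of all genes were lower and 10.8% higher. The methods' t-test after adjustment again called 0 of them and 0 of all genes. The median difference of the 9 was 0.35 against -0.01 over all genes. Between the precursors, 1 of 9 was called lower with miR-205-5p, where 11.3% of all genes were called lower and 9.18% higher, and the median was -0.43 against 0.12 over all genes. Read against these shares, the counts of called genes were near or below the background in all 3 comparisons.

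The arrays of the 2 groups did not overlap for 6 of 10 genes with miR-205-5p against SCR (5 of the 9 without PEMT). This was so for 5 of 9 with miR-214-3p against SCR and 7 of 9 between the precursors. Over all genes this was so for 65.2%, 58.5% and 80.3%. The background counts depend on the scaling, because scaling to the median signal moved the median of all genes with miR-205-5p from 0.08 to -0.31. All genes called lower and higher went from 956 and 572 to 1875 and 212 with miR-205-5p, from 243 and 131 to 278 and 44 with miR-214-3p, and from 1352 and 1099 to 1801 and 638 between the precursors. Such a change of scaling moves every gene of a comparison by the same amount, so the distance of a gene from the median of all genes cannot change. For CHKB with miR-205-5p the values were -0.88 against 0.08 and -1.27 against -0.31.

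The surrounding pathway was read from a list of 74 other genes, of which 73 had a named probe and 59 were tested. With miR-205-5p 3 were called lower (AHCY, GPAT4 and LPCAT4) and 4 higher (CDS1, CRLS1, ETNK2 and PHOSPHO1) of the 59, beside 7.98% and 4.78% of all genes. Under scaling to the median signal, 9 of the 59 were called lower and 1 (CDS1) higher, beside 1875 and 212 of all 11974 genes. PHOSPHO1 was then at 0.99 (adjusted p = 0.0205, limma), ETNK2 at 0.83 (adjusted p = 0.0743) and CRLS1 at 0.72 (adjusted p = 0.126). With miR-214-3p 3 were called lower (CDIPT, GPAT2 and PEDS1) and 0 higher, beside 2.03% and 1.09% of all genes, with 10 lower and 4 higher at an unadjusted p under 0.05 in limma, the threshold that 13.4% and 10.8% of all genes passed. The medians of the 59 genes were 0.16 with miR-205-5p and -0.20 with miR-214-3p, beside 0.08 and -0.01 over all genes. Directly between the precursors, 6 of the 59 were called lower and 13 higher with miR-205-5p, beside 11.3% and 9.18% of all genes.

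Around the methylation step 1 of 6 tested genes was called, AHCY, which removes the S-adenosylhomocysteine that PEMT and other methyltransferases release. It was called lower with miR-205-5p against SCR and between the precursors, where 7.98% and 11.3% of all genes were called lower. AHCY read 3.79 and 3.95 on the SCR arrays, 2.56 and 2.61 with miR-205-5p, and 3.71 and 3.73 with miR-214-3p. The miR-205-5p arrays stood below the other 4. AHCY fell by 1.29 with miR-205-5p (SE 0.15, 2.44-fold, adjusted p = 0.00969, limma), was 1.14 lower with miR-205-5p than with miR-214-3p (adjusted p = 0.00717), and differed from SCR by -0.15 with miR-214-3p (adjusted p = 0.602). MAT2B, a regulatory subunit of the enzyme that makes S-adenosylmethionine, read 0.71 and 3.09 on the SCR arrays and between 1.90 and 2.41 on the other 4, a wider gap between the control arrays than between any groups.

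In the ethanolamine branch 1 of 2 other tested genes was called, ETNK2, a second ethanolamine kinase. It was called higher with miR-205-5p, where 4.78% of all genes were. Its brighter probe read 2.30 and 1.75 on the SCR arrays, 3.37 and 3.13 with miR-205-5p, and 2.33 and 2.22 with miR-214-3p. On this probe ETNK2 was 1.22 above SCR with miR-205-5p (SE 0.24, 2.33-fold, adjusted p = 0.0249, limma) and overlapped SCR with miR-214-3p. The other ETNK2 probe was at -0.16 with miR-205-5p (adjusted p = 0.804), and the mean of both was 0.53 (adjusted p = 0.226), so the call rests on 1 probe. PTDSS2, the synthase that uses phosphatidylethanolamine, was the only other gene of the phosphatidylserine branch and differed from SCR by 0.45 and -0.33 (SE 0.36 each), with neither called.

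Of 9 transporters of choline and ethanolamine, 4 were tested and 0 were called against SCR on their brightest probe, with 1 lower and 3 higher at an unadjusted p under 0.05 in limma with miR-205-5p and 1 lower and 0 higher with miR-214-3p. At that threshold 18.9% of all genes were lower and 20.6% higher with miR-205-5p, and 13.4% and 10.8% with miR-214-3p. SLC44A1, a choline transporter of the plasma membrane, was 0.94 above SCR with miR-205-5p (SE 0.17, adjusted p = 0.0202, limma) and FLVCR1, which also carries choline, 0.75 above it (adjusted p = 0.0288), both under 2-fold. SLC44A2, a relative of SLC44A1, was 0.87 below SCR with miR-205-5p on its brighter probe (adjusted p = 0.0187) and 1.52 below it on the other (adjusted p = 0.0149), which passed both limits, as did the mean of both probes (-1.20, adjusted p = 0.00841). The direct comparison called FLVCR1 (1.27) and the carnitine transporter SLC22A5 (1.15) higher and SLC44A2 (-1.09) lower with miR-205-5p than with miR-214-3p.

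Phosphatidic acid and diacylglycerol supply both branches, and 12 of 12 such genes were tested. GPAT4, a glycerol-3-phosphate acyltransferase of the endoplasmic reticulum, fell by 1.43 with miR-205-5p (SE 0.29, 2.70-fold, adjusted p = 0.0288, limma). GPAT2, a mitochondrial member of the same family, read 6.74 and 6.47 on the SCR arrays, 6.80 and 6.72 with miR-205-5p, and 4.94 and 5.00 with miR-214-3p. The GPAT2 arrays split as those of PEMT did, with the miR-214-3p pair alone below the rest. GPAT2 fell by 1.63 with miR-214-3p (SE 0.17, 3.1-fold, adjusted p = 0.0263) and was 1.79 higher with miR-205-5p than with miR-214-3p (adjusted p = 0.00404). On its 3 other tested probes GPAT2 was 1.91 to 2.49 below SCR with miR-214-3p, each with an adjusted p of at most 0.0304. AGPAT1, which adds the second acyl chain, was called between the precursors (1.05, adjusted p = 0.0141) and was -0.72 from SCR with miR-214-3p (adjusted p = 0.108), which was not called.

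The CDP-diacylglycerol branch leads to phosphatidylinositol and cardiolipin instead of phosphatidylcholine. It held calls in both directions, with 2 of 7 tested genes higher with miR-205-5p, 1 lower with miR-214-3p, and 5 higher with miR-205-5p than with miR-214-3p. Over all genes these calls made up 4.78%, 2.03% and 9.18%. CDS1, a CDP-diacylglycerol synthase, read -1.70 and -1.57 on the SCR arrays, 0.70 and 0.31 with miR-205-5p, and -1.89 and -1.93 with miR-214-3p. CDS1 rose by 2.14 with miR-205-5p (SE 0.19, 4.41-fold, adjusted p = 0.00800, limma), and since it was not well above background on either miR-214-3p array it was at least 5.24-fold higher with miR-205-5p than with miR-214-3p. CRLS1, cardiolipin synthase, rose by 1.11 with miR-205-5p (SE 0.29, 2.16-fold, adjusted p = 0.0499), just inside the threshold.

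CDIPT, phosphatidylinositol synthase, read 3.73 and 3.29 on the SCR arrays, 2.95 and 3.00 with miR-205-5p, and 1.79 and 1.92 with miR-214-3p. Its order of groups was that of PEMT, with miR-214-3p lowest and miR-205-5p between. CDIPT fell by 1.65 with miR-214-3p (SE 0.20, 3.14-fold, adjusted p = 0.0333, limma) and was 1.11 higher with miR-205-5p than with miR-214-3p (adjusted p = 0.0144). CRLS1 (1.59), PTPMT1 (1.13), a phosphatase of cardiolipin synthesis, and CDS2 (at least 2.30-fold, not well above background with miR-214-3p) were the other genes of the branch called higher with miR-205-5p than with miR-214-3p.

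Acyl chain remodelling replaces the fatty acids of finished phospholipids. LPCAT4 fell by 1.09 with miR-205-5p (SE 0.16, 2.12-fold, adjusted p = 0.0146, limma). It was the 1 call against SCR among 9 tested genes, where 7.98% of all genes were called lower with miR-205-5p and 2.03% with miR-214-3p. Between the precursors LPCAT3 was higher (1.13, adjusted p = 0.0175) and LPCAT1 lower (-1.28, adjusted p = 0.0178) with miR-205-5p, and MBOAT2, not well above background on the miR-205-5p arrays, was at least 3.52-fold lower.

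Among 12 tested genes that break down phospholipids or release their head groups, PHOSPHO1, a phosphatase of phosphocholine and phosphoethanolamine, rose by 1.38 with miR-205-5p (SE 0.20, 2.61-fold, adjusted p = 0.0141, limma). PLD2, a phospholipase that frees choline, read 1.93 and 1.76 on the SCR arrays, 3.53 and 2.39 with miR-205-5p, and 0.36 and 0.43 with miR-214-3p. The PLD2 differences from SCR, 1.11 and -1.45, were not called (adjusted p = 0.0957 and 0.108), while the difference between the precursors was called (2.57, SE 0.38, adjusted p = 0.00891). LYPLA2, a lysophospholipase (1.27), was higher and GPCPD1, which releases choline from glycerophosphocholine (-1.23), lower with miR-205-5p than with miR-214-3p.

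PEDS1, which introduces the vinyl ether bond of plasmalogens, had 2 tested probes, and the brighter read 6.07 and 5.89 on the SCR arrays, 6.15 and 5.99 with miR-205-5p, and 4.74 and 4.54 with miR-214-3p. Its miR-214-3p arrays alone stood below the rest. On this probe PEDS1 was 1.34 below SCR with miR-214-3p (SE 0.17, 2.53-fold, adjusted p = 0.0357, limma) and 1.43 higher with miR-205-5p than with miR-214-3p (adjusted p = 0.00569). The other PEDS1 probe was at -0.49 with miR-214-3p (adjusted p = 0.507), and the mean of both, at -0.92 (adjusted p = 0.0610), was not called. FAR1, which makes the fatty alcohols of ether lipids, was not well above background on the miR-205-5p arrays and was at least 3.45-fold lower there than with miR-214-3p (adjusted p = 0.0206), while GNPAT, at the start of the same route, was -0.49 and -0.53 from SCR with neither called. The 2 tested sphingomyelin synthases gave 0 calls and 0 unadjusted p under 0.05 in limma, and SGMS1 differed from SCR by -0.84 and -0.27 (SE 0.40 each).

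The 3 calls with miR-214-3p were lost under several settings. With no filter, with the 4 arrays compared alone, or without any 1 array other than SCR replicate 2, 0 of the 59 genes were called against SCR, and 0 of all genes, whereas without SCR replicate 2 there were 6 of 59, beside 9.61% of all genes. Of the 7 calls with miR-205-5p, leaving out miR-205-5p replicate 2 left 0, and the count of the 59 was 2 without miR-205-5p replicate 1, 3 without either miR-214-3p array and 12 without SCR replicate 1. The calls over all genes numbered 1528 with all arrays and 0, 770, 617 and 2465 in the same order of settings. Of the 7, only AHCY and GPAT4 remained with normexp background correction.

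**Figure D3:**
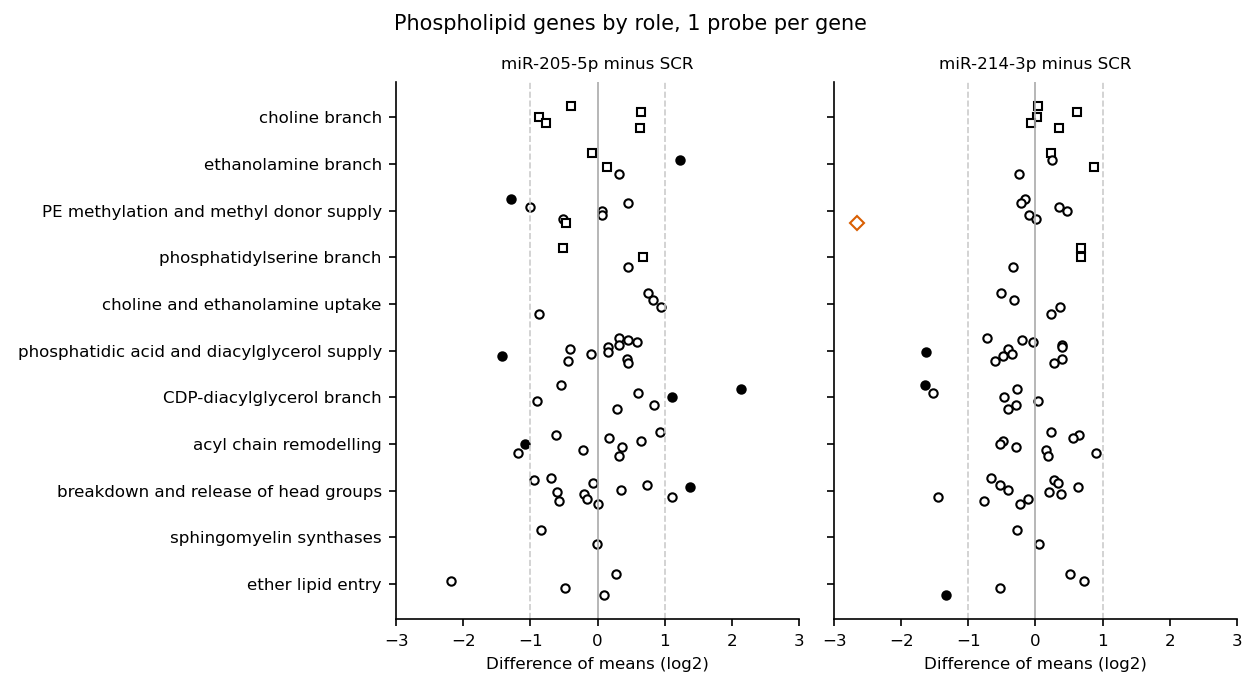
Difference from SCR (x axis, log2 units) for the 10 genes (squares) and the 59 other tested pathway genes (circles), 1 probe per gene, by role (y axis); filled symbols are called and the open diamond is PEMT at -2.67. Symbols are measured means, also for FAR1, MBOAT2, GDE1 and PLD1 with miR-205-5p and CDS1 and CDS2 with miR-214-3p, which were not well above background there.

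The genes whose pattern over the 6 arrays was most like that of PEMT were searched among 11660 genes well above background on both SCR arrays. By Pearson correlation they were BUD23 (0.998), ANKRD52 (0.998), TRPV2 (0.998), LEF1 (0.997) and SNORD104 (0.997). BUD23 methylates ribosomal RNA, ANKRD52 is a regulatory subunit of a protein phosphatase, TRPV2 is a cation channel, LEF1 is a transcription factor of the Wnt pathway and SNORD104 is a small nucleolar RNA. A high correlation over 6 arrays that fall into 3 groups says mainly that the order and spacing of the groups are alike, and the points share arrays and scaling.

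The miR-214-3p means of the 5 genes were below SCR by very different amounts, under 2-fold for SNORD104 and BUD23. ANKRD52 read 7.56 and 7.25 on the SCR arrays, 6.92 and 6.80 with miR-205-5p, and 4.98 and 4.84 with miR-214-3p, a difference from SCR of -2.49. TRPV2 differed from SCR by -2.04, LEF1 by -1.09, SNORD104 by -0.83 and BUD23 by -0.66. These genes were picked for likeness to a gene chosen by its fall with miR-214-3p, so their differences are a description.

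**Figure D4:**
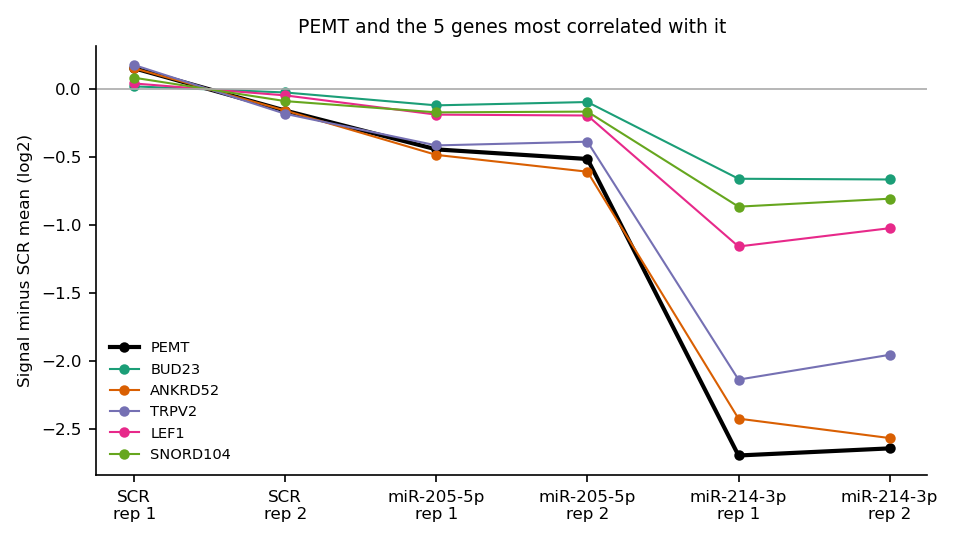
Normalized log2 signal minus the SCR mean of the same gene (y axis) on the 6 arrays (x axis) for PEMT and the 5 genes most correlated with it; lines only join the points of a gene. All 6 genes were lowest on the miR-214-3p arrays, with PEMT at -2.67 and BUD23 at -0.66 on average.

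Over the 6 arrays the Pearson correlation of the 9 other genes with PEMT was -0.94 for PCYT2, -0.80 for ETNK1, -0.75 for PISD, -0.63 for PTDSS1, -0.52 for CHKA, -0.37 for CHKB, -0.28 for CHPT1, -0.26 for CEPT1 and -0.11 for PCYT1A. These are a description over arrays that PEMT itself was chosen from, and those of PCYT1A, CEPT1 and CHPT1 were weak.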

How the data were processed

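The 6 one-colour arrays of MDA-MB-231 RNA were grouped by the sample labels. The authors deposited Agilent Feature Extraction 11.0 output (per the submitters' notes), in which the processed signal, a linear intensity, is already background subtracted, and a table of log2 values whose columns held identical sorted values and whose centring was not stated; each column had a median of 3.49. The paper's methods name GeneSpring and limits on p and on fold (2-fold) for the arrays, with no test named there; the two-tailed t-test of their general statistics was run as an alternative and is called the methods' t-test.

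Control and outlier spots (245 to 463 per array) were dropped, and replicate spots averaged. The 75th percentile of the processed signal, 35.1 to 58.0 per array, was subtracted on the log2 scale, and 18468 probes were tested in limma 3.58.1 (R 4.3.3) with 3 groups in 1 fit. The number of arrays, 2 per group, limits the precision, and an exact permutation test of 2 against 2 cannot go below p = 0.333. For a gene with several probes, the brightest tested probe entered the counts. Where a probe was not well above background on any array of a group, the fold is a lower bound, computed against the higher of its own signal and the lowest signal well above background on each array.

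Probes were named through the RefSeq table (GRCh38.p14) by transcript; 30275 probes matched 1 gene. PEDS1 was matched under its older symbol, and TAFAZZIN had no named probe. No column was left without a sample. Named genes were all members, other pathway genes called in a comparison or with the largest difference from SCR in their role, and the 5 genes most correlated with PEMT. The members, the pathway list and the tests were chosen with earlier results of these data known. The fit was tested on simulated data. Alternatives were another background correction (normexp on the median signal, offset 50), other scalings, filters, variance models, tests, thresholds and sets of arrays.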

Additional observations from a re-analysis of the deposited data

How the results depend on the processing

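Of 396 alternative values for the members, 378 kept their direction or, where not called, their side of the call rule, 5 (all of PISD) lost and 9 gained a call, and 0 reversed. The 396 values come from normexp, the other scalings, the deposited log2 table and single arrays left out. The loss of the PISD call with no filter and with the replicate block is therefore not among the 5. PEMT against miR-214-3p arrays was counted by its size alone, without a test, and moved by more than the spread in 4. Uncalled values near 0 changed sign 21 times. Of 924 for the other pathway genes, 784 were unchanged in this sense, 124 lost and 15 gained a call, and 1 reversed, MAT2B with miR-205-5p, which ran from -1.13 without SCR replicate 1 to 1.25 without SCR replicate 2. PEMT with miR-214-3p lay between -2.49 with normexp and -2.83 with scaling to the median (adjusted p = 0.0532 to 0.243 without any 1 array other than SCR replicate 2), and with miR-205-5p its adjusted p ranged from 0.0315 to 0.311. Members called with miR-205-5p numbered 2 under scaling to the median (CHKB and CHPT1), 2 with no fold limit (CHKB and PTDSS1) and 0 to 3 when arrays were left out. With miR-214-3p leaving out arrays gave 0 to 1. Between the precursors the count was 0 with normexp, with no filter and with the replicate block, 2 under scaling to the median (CHKB and PISD), 3 with no fold limit (CHKB, PCYT2 and PISD), and 0 to 1 when arrays were left out. Other pathway genes called with miR-205-5p numbered 2 with normexp, 1 with no filter, 3 with the 4 arrays compared, 0 by the methods' t-test after adjustment, 15 with no fold limit, and 0 to 12 when arrays were left out. They were 9 lower and 1 higher under scaling to the median, beside 1875 and 212 of all 11974 genes. Averaging the probes of a gene gave 5 lower and 3 higher, without ETNK2, beside 1023 and 522 of all genes. With miR-214-3p averaging gave 2 lower and 1 higher, LCLAT1 (1.17) in place of PEDS1. With miR-214-3p they numbered 0 with no filter, with the 4 arrays compared, with the replicate block and by the methods' t-test after adjustment, 5 at unadjusted p, and 0 to 6 when arrays were left out. Apart from fewer arrays, whose fits have fewer degrees of freedom, the cause was not tested.

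The replicate numbers shared by the groups come from the labels, but deviations of same-numbered arrays correlated at 0.01, -0.05 and 0.11, so they share only a number. With the replicate block, all genes called lower and higher were 843 and 498 with miR-205-5p, 0 and 0 with miR-214-3p and 1290 and 1088 between the precursors. With miR-205-5p against SCR, the methods' t-test after adjustment called 0 of all genes. With miR-214-3p against SCR, all genes called were also 0 by the methods' t-test after adjustment (352 lower and 197 higher at its unadjusted threshold) and 0 with no filter, and limma at unadjusted p called 495 and 319. With normexp they were 616 and 134 with miR-205-5p, 209 and 37 with miR-214-3p, and 646 and 417 between the precursors; with no filter 206 and 114, then 0 and 0, then 726 and 522. Processed signals of the tested CEPT1, ETNK1 and PISD probes were at most 49.9, 23.5 and 90.2 on any array. The tested ETNK1 probe was well above background on 5 of 6 arrays, and those of CEPT1 and PISD on 6.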

Other observations

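The protein-coding genes nearest PEMT in the RefSeq table, 3 on each side, were read after the values of PEMT had been seen. With miR-214-3p, NT5M was not well above background and was at least 2.25-fold lower than in SCR (adjusted p = 0.0415, limma), while MED9 (0.26), RASD1 (0.59), RAI1 (-0.30), SREBF1 (-0.11) and TOM1L2 (-0.32) were not called. With miR-205-5p, RASD1 was higher than in SCR by 1.14 (2.21-fold, adjusted p = 0.0144), and the other 5 were not called.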
